A study of Homo sapiens with 12 samples.

Results

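The zinc finger gene clusters of chromosome 19 were taken as 8 windows of GRCh37 that together span 16.6 Mb, and their members are all ChIP-seq peaks whose summit lies in a window. The windows, numbered from the short-arm end, run from 2.7 to 3.0 Mb (window 1), 9.2 to 10.0 Mb (window 2), 11.6 to 12.8 Mb (window 3), 19.8 to 24.6 Mb (window 4), 34.9 to 38.5 Mb (window 5), 44.2 to 45.1 Mb (window 6), 52.3 to 54.2 Mb (window 7) and 56.0 to 59.1 Mb (window 8). Of the 164693 deposited peaks, 1265 were members and 1882 lay in the rest of chromosome 19. The windows were chosen by position with the gathering of strong Huh7 peaks on chromosome 19 already known, so all densities and counts below are descriptions. No annotation of this build was used here, and no peak was assigned to a gene.

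The peaks come from HepG2 and Huh7, which are human liver-cancer cell lines, and from stably transfected cells of each line that carry HOXA13 with an HA tag. Untagged HepG2 and Huh7 cells were precipitated with anti-HOXA13, and the tagged HepG2 and Huh7 cells with anti-HA. Each list stems from 1 ChIP library set against 1 input library, without a replicate, so no test between conditions was possible and intervals cover counting error only. The labels do not say which promoter drives the transgene or whether the tagged cells are 1 clone or a pool.

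HOXA13 is a homeodomain transcription factor that patterns the distal limb and the hindgut and urogenital tract during development. Human chromosome 19 carries long tandem arrays of zinc finger genes, many of which encode a KRAB domain. KRAB zinc finger proteins bind DNA through repeated C2H2 fingers, many at transposable elements, and recruit TRIM28 and the histone methyltransferase SETDB1, which deposits H3K9me3. The genes themselves carry H3K9me3 over their finger-coding exons in many cell types. In the RefSeq order of genes (GRCh38.p14), 250 of the 1451 protein-coding genes of chromosome 19 have a ZNF symbol, which is 48.4% of the 517 in the genome, and 183 of the 250 stand in 16 runs of 5 or more neighbours, the longest with 27 genes. That order is of another build and was not used to place genes in the windows.

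The HOXA13 antibody in Huh7 placed far more peaks in the clusters than elsewhere on the chromosome, whereas the anti-HA densities depended on whether peaks with raised input were counted. Huh7 anti-HOXA13 had 382 members, or 23.0 peaks per Mb (20.8 to 25.4, 95% Poisson interval), against 5.99 per Mb (5.25 to 6.80) in the 39.4 Mb of the rest of chromosome 19. HepG2 anti-HOXA13 had 486 members at 29.3 per Mb (26.7 to 32.0), against 19.4 per Mb (18.1 to 20.9) in the rest. The 188 tagged HepG2 anti-HA members lay at 11.3 per Mb (9.76 to 13.1) and the rest at 10.2 per Mb (9.25 to 11.3), and the 209 tagged Huh7 anti-HA members lay at 12.6 per Mb (10.9 to 14.4) and the rest at 12.1 per Mb (11.0 to 13.2). The ratio of cluster density to rest density was therefore 3.84 (3.26 to 4.54) in Huh7 anti-HOXA13, 1.51 (1.34 to 1.69) in HepG2 anti-HOXA13, 1.11 (0.927 to 1.32) in tagged HepG2 anti-HA and 1.04 (0.880 to 1.23) in tagged Huh7 anti-HA. The intervals of the anti-HA ratios include 1. Raised input means that the fragments expected from input at the summit (the expected pileup) numbered over 3 times the background of the list. Without such peaks the anti-HA ratios were 1.71 (1.36 to 2.14) in tagged HepG2 and 1.37 (1.14 to 1.64) in tagged Huh7, and both intervals lie above 1. Leaving such peaks out removed more of the rest than of the members. In tagged HepG2 they made up 53.1% of the rest, 27.7% of members and 17.3% over chromosomes 1 to 22, X and Y. In tagged Huh7 these shares were 30.0%, 8.13% and 8.13%. The length used leaves out a stretch from 24631181 to 27732170 that holds no peak of any list and spans the centromere. Densities and overlaps take in peaks of any q unless a limit is stated. A q of 0.05 or less was reached by 112 Huh7 anti-HOXA13 members (29.3%) and 112 HepG2 anti-HOXA13 members (23.0%). It was reached by 99 tagged HepG2 anti-HA members (52.7%) and 7 tagged Huh7 anti-HA members (3.35%). Most members of every list but tagged HepG2 anti-HA thus fell short of it.

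The Huh7 anti-HOXA13 excess was present in each window and on both arms. Its densities ran from 17.2 per Mb (13.2 to 22.1) in window 5 to 35.8 per Mb (25.9 to 48.3) in window 3. The flanks of 1 Mb on either side of a window held between 3 and 9.50 peaks per Mb, so the lowest window lay above the highest flank. Windows 1 to 4, on the short arm, held 28.3 to 35.8 per Mb and windows 5 to 8, on the long arm, 17.2 to 19.5 per Mb, and within each of these sets the intervals overlapped. The rest of the chromosome differed between the arms in the same direction, with 7.64 peaks per Mb on the short arm and 4.66 on the long arm. The ratio of clusters to rest was 3.92 (3.15 to 4.91) on the short arm and 3.82 (2.97 to 4.93) on the long arm.

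In the other lists single windows or arms set the value. HepG2 anti-HOXA13 was densest in window 5, with 54.7 peaks per Mb (47.3 to 62.9), where tagged HepG2 anti-HA was densest too, with 19.4 per Mb (15.2 to 24.6). Window 3, the densest window of Huh7 anti-HOXA13, was the sparsest of HepG2 anti-HOXA13, with 7.50 per Mb (3.43 to 14.2). Without window 5 the ratio fell to 1.14 in HepG2 anti-HOXA13 and to 0.888 in tagged HepG2 anti-HA. Tagged Huh7 anti-HA stood at 20.8 and 20.4 per Mb in windows 3 and 4 and at 4.21 to 15.6 per Mb in the other windows. Without window 4 its ratio fell to 0.777 (0.626 to 0.958). Its ratio was 1.27 (1.02 to 1.58) on the short arm and 0.803 (0.611 to 1.04) on the long arm. The HepG2 ratios went the other way between the arms, with 0.769 (0.569 to 1.03) on the short and 1.42 (1.13 to 1.79) on the long arm for tagged HepG2 anti-HA, and 1.23 (1.02 to 1.50) and 1.69 (1.46 to 1.95) for HepG2 anti-HOXA13.

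**Figure D1:**
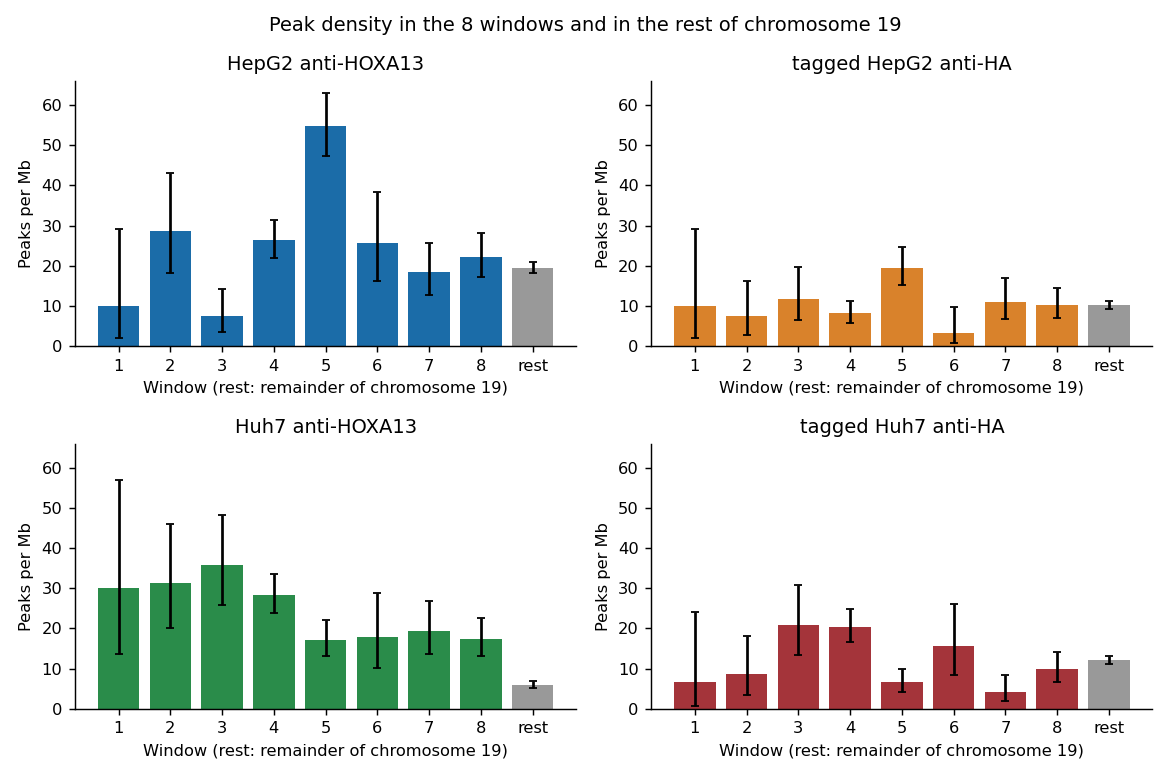
Peaks per Mb in each of the 8 windows and in the rest of chromosome 19 (grey), 1 panel per list, with 95% Poisson intervals as bars. In Huh7 anti-HOXA13 all 8 windows stand above the rest at 5.99 per Mb, whereas in HepG2 anti-HOXA13 window 5 stands apart at 54.7 per Mb.

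Strong peaks, those with a −log10 q of 5 or more, separated the lists further. In Huh7 anti-HOXA13, 47 of the 382 members were strong (12.3%, 9.18 to 16%, exact binomial interval), against 7 of 236 peaks (2.97%, 1.20 to 6.02%) in the rest of the chromosome and 2.55% over the whole list, which here and below means its 10414 peaks on chromosomes 1 to 22, X and Y (71999 in HepG2 anti-HOXA13, 34849 in tagged HepG2 anti-HA and 28809 in tagged Huh7 anti-HA). The clusters make up 0.573% of the covered genome and held 17.7% (13.3 to 22.8%) of the 266 strong peaks of that list. In HepG2 anti-HOXA13, 23 of 486 members were strong (4.73%, 3.02 to 7.02%), against 4 of 766 (0.522%, 0.142 to 1.33%) in the rest and 0.753% over the whole list. The clusters held 4.24% (2.71 to 6.30%) of its 542 strong peaks, and 21 of the 95 without raised input (22.1%, 14.2 to 31.8%). In tagged HepG2 anti-HA 37 of 188 members were strong (19.7%, 14.3 to 26.1%), against 90 of 403 (22.3%, 18.4 to 26.7%) in the rest and 21.6% over the whole list, so its members did not stand out. Tagged Huh7 anti-HA had no strong peak among its 209 members, which allows a share of up to 1.44%, against 4 of 477 (0.839%, 0.229 to 2.13%) in the rest and 0.399% over the whole list. Among the 200 best peaks of each list by q, 35 of Huh7 anti-HOXA13 lay in the clusters (17.5%, 12.5 to 23.5%) and none of the other lists did. The exact interval of these zero counts reaches 1.83%, which includes the 0.573% of length that the clusters make up. The 200 are also a larger part of the shorter Huh7 anti-HOXA13 list than of the others.

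The strong Huh7 anti-HOXA13 members were spread over all 8 windows. Windows 1 to 8 held 4, 3, 11, 12, 5, 4, 3 and 5 of them, and per Mb they were most frequent in window 1 at 13.3 and window 3 at 9.17, against 0.178 per Mb in the rest of the chromosome. The ratio of strong-peak density was 15.9 (7.16 to 41.8) over both arms. It was 12.3 (5.06 to 36.3) on the short arm, where 30 lay in the clusters and 6 in the rest, and the long arm held 17 in the clusters and 1 in the rest. Within windows, consecutive strong summits lay a median of 111 kb apart, the closest pair 5.25 kb apart, and they fell into 29 groups when summits within 100 kb were joined. Leaving out any 1 window kept the ratio between 13.2 and 18.2.

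The highest Huh7 anti-HOXA13 member lay in window 1, at 2933346 to 2933871, with 82 ChIP fragments at the summit and 13.7-fold enrichment (10.9 to 16.9). Fold, as deposited by the authors, divides the stacked ChIP fragments at the summit by the expected pileup, with 1 added to both, and fragment counts were solved from it and the deposited p. In window 4, the peaks at 22130607 to 22130869 and 23040331 to 23040856 stood at 10.0-fold (7.47 to 13.2) and 9.97-fold (7.29 to 13.3), with 49 and 43 fragments. These peaks carried no peak of any other list. The intervals of the window 4 peaks overlap each other and those of the next peaks down.

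A second set of high Huh7 anti-HOXA13 members overlapped HepG2 anti-HOXA13 peaks, though most of their summits lay apart. In window 8 the peak at 58708182 to 58708737 stood at 9.29-fold (6.80 to 12.4) and the peak at 58489598 to 58490893 at 8.90-fold (6.46 to 12). In window 6 the peak at 44980643 to 44981768 stood at 9.23-fold (7.19 to 11.7) from 67 fragments. In window 3 the peak at 12637448 to 12638686 stood at 9.13-fold (6.93 to 11.8). The overlapping HepG2 anti-HOXA13 peaks at these positions had 3.42-fold, 2.93-fold, 3.36-fold and 3.32-fold enrichment, in the order given, and none of them was strong. The summits of the lists lay 7, 284, 631 and 1049 bp apart, in the same order. Of the 10 highest strong members of Huh7 anti-HOXA13, 4 overlapped HepG2 anti-HOXA13, 1 overlapped tagged Huh7 anti-HA and none overlapped tagged HepG2 anti-HA. Over the whole list the overlapping shares were 2.47%, 1.77% and 2.16%, in the same order.

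Huh7 anti-HOXA13 members were also wider and higher than the peaks of the same list elsewhere on the chromosome. Their median width was 213 bp, against 159 bp in the rest, and 58 of 382 (15.2%) were 500 bp or wider, against 5 of 236 (2.12%). Over the whole list the median width was 158 bp. Among peaks of 3- to 5-fold the median width was 253 bp in the clusters and 166 bp in the rest. It was 178.5 and 158.5 bp below 3-fold and 568 and 365.5 bp at 5- to 8-fold, in the same order. At 8-fold or more the order was reversed, with 556 bp for 7 members and 735.5 bp for 2 peaks of the rest. Enrichment of 5-fold or more was reached by 42 members (11.0%, 8.04 to 14.6%), against 6 peaks of the rest (2.54%, 0.939 to 5.45%) and 1.98% over the whole list. The median fold was 2.96 in the clusters and 2.57 in the rest. The expected pileup had medians of 3.44 and 3.69 fragments in the clusters and the rest, against 3.35 over the whole list. Raised input lay under 10.2% (7.36 to 13.7%) of members and 18.2% (13.5 to 23.7%) of the rest. Over the whole list it lay under 8.83%, within the interval of the members and below that of the rest. Without raised input 45 strong members and 5 strong peaks of the rest remained.

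**Figure D2:**
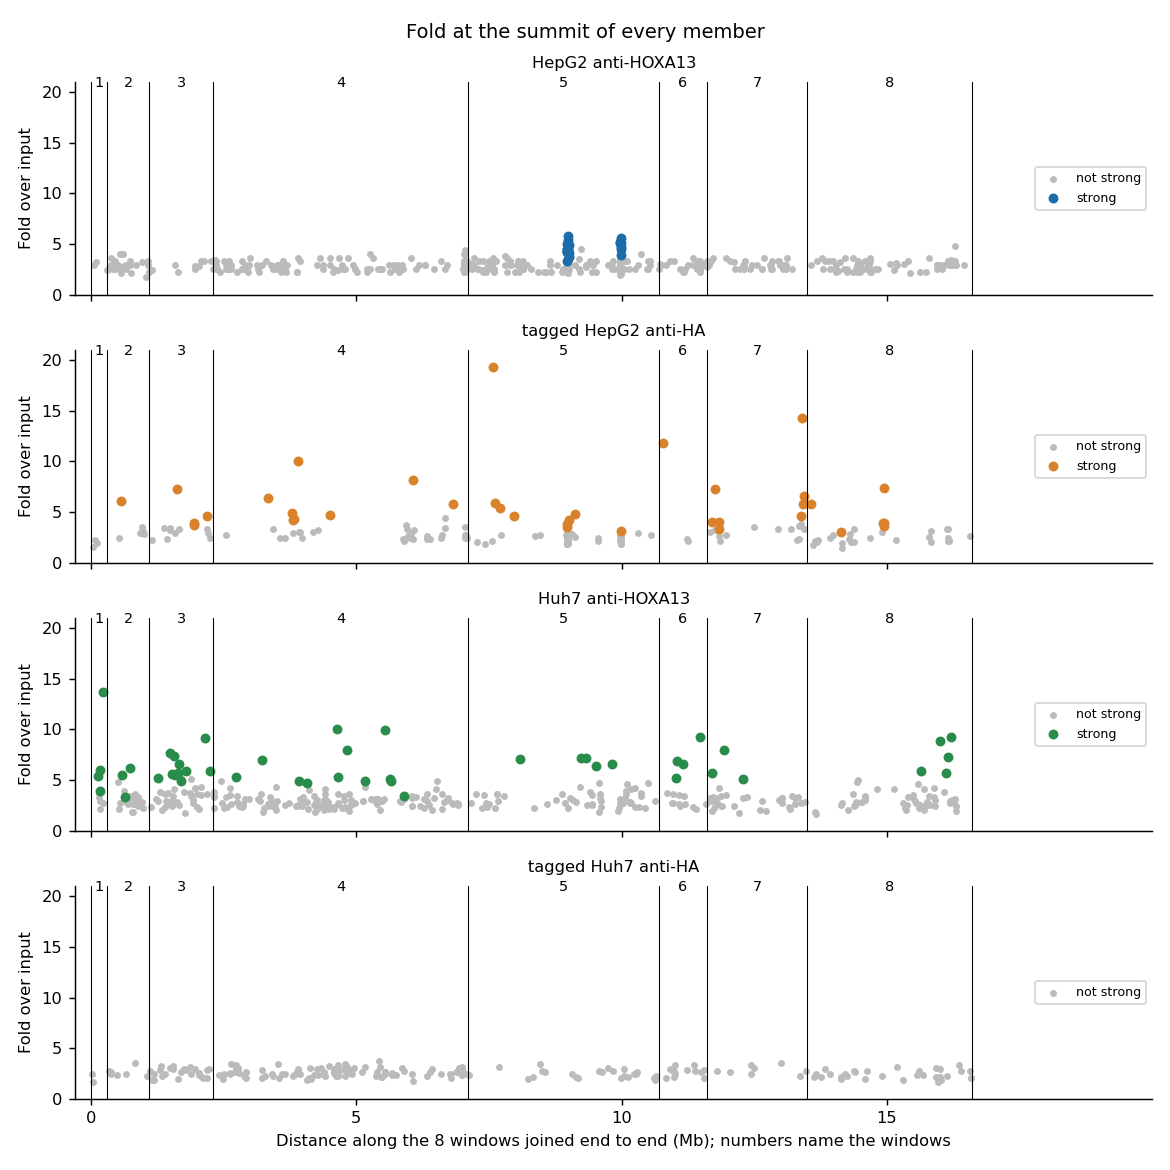
Fold over input at the summit of every member, by distance along the 8 windows joined end to end in Mb, 1 panel per list, with strong peaks coloured and window numbers at the top. Strong Huh7 anti-HOXA13 members occur in every window, the 23 strong HepG2 anti-HOXA13 members stand in 2 columns in window 5, and tagged Huh7 anti-HA has none.

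**Figure D3:**
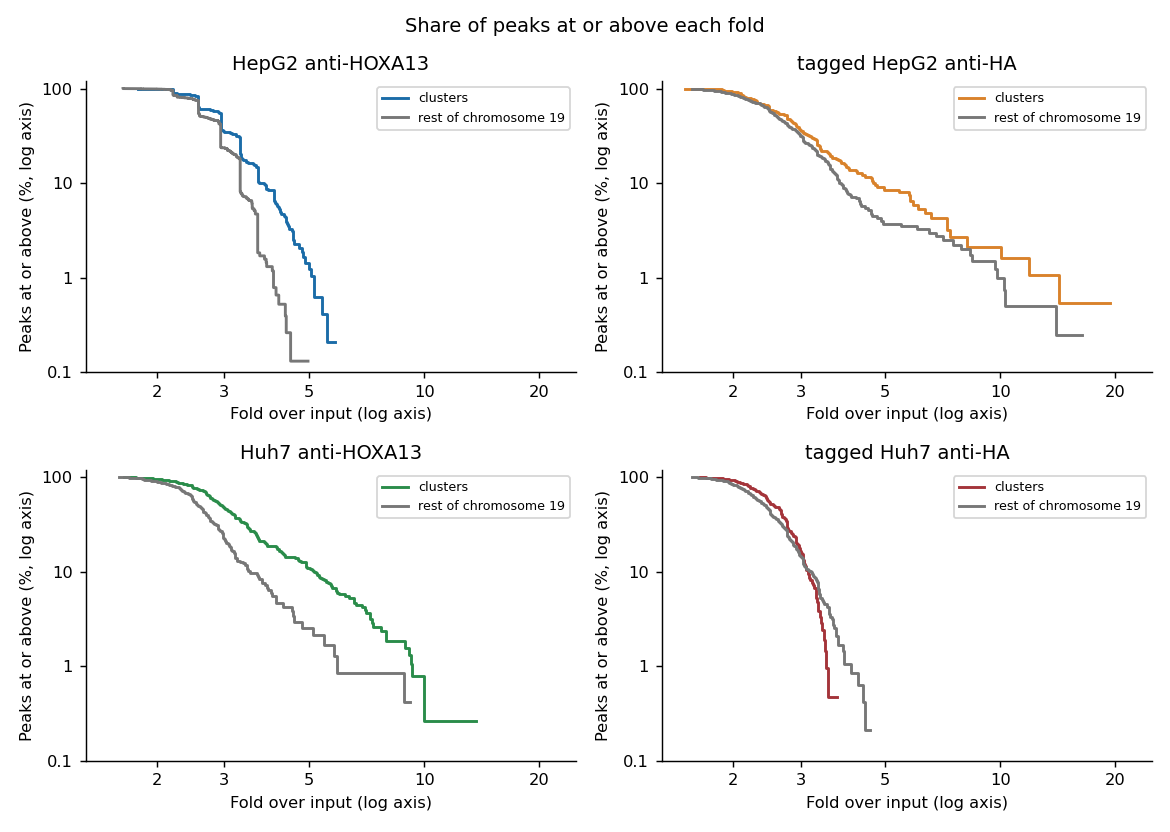
Percentage of peaks at or above each fold (both axes logarithmic) in the clusters and in the rest of chromosome 19, 1 panel per list. At 5-fold the Huh7 anti-HOXA13 curves stand at 11.0% for the clusters and 2.54% for the rest.

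The strong HepG2 anti-HOXA13 members lay without exception in 2 short stretches of window 5. Stretch 1, at 36759652 to 36798968, spans 39.3 kb and held 56 HepG2 anti-HOXA13 peaks, 16 of them strong. Stretch 2, at 37770728 to 37793364, spans 22.6 kb and held 35 peaks, 7 of them strong. Peaks covered 61.1% of stretch 1 and 51.5% of stretch 2, and consecutive summits lay a median of 0.644 kb and 0.576 kb apart. Consecutive strong summits of HepG2 anti-HOXA13 within windows lay a median of 2.94 kb apart, whereas those of Huh7 anti-HOXA13 lay a median of 111 kb apart.

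Fold in the stretches was moderate and the input was above background. HepG2 anti-HOXA13 folds ran between 2.15 and 5.84 with a median of 3.32 in stretch 1, and between 1.92 and 5.55 with a median of 3.34 in stretch 2. The highest peak, at 36782048 to 36782468, had 26 fragments and 5.84-fold enrichment (3.89 to 8.46). Folds of 5 or more were reached by 7 members (1.44%), against no peak of the rest and 0.124% over the whole list. The median expected pileup was 2.74 times the list background in stretch 1 and 1.85 times in stretch 2. Raised input lay under 17 and 5 of the peaks, and 21 of the 23 strong members had none. The part of the higher input in these values was not tested.

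Tagged HepG2 anti-HA also had many peaks in the stretches, whereas the Huh7 lists had few. Tagged HepG2 anti-HA held 32 peaks in stretch 1, 2 of them strong, with a median of 2.25-fold. In stretch 2 it held 14, 1 of them strong, with a median of 2.67-fold, and its median expected pileup was 3.29 and 2.87 times background in stretches 1 and 2. Huh7 anti-HOXA13 held 1 peak in stretch 1 and 2 in stretch 2, and tagged Huh7 anti-HA held 0 and 1, none strong. Over all members the HepG2 anti-HOXA13 strong-density ratio was 13.7 (4.67 to 54.3), an interval that counts neighbouring peaks as independent. With strong peaks within 10 kb counted as 1 group it was 2.37 (0.172 to 32.8), which includes 1. Outside the stretches 395 members remained and none was strong, but the stretches were defined by strong peaks, so this follows in large part from the definition. The ratio for all peaks was 1.23 (1.09 to 1.39) there.

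**Figure D4:**
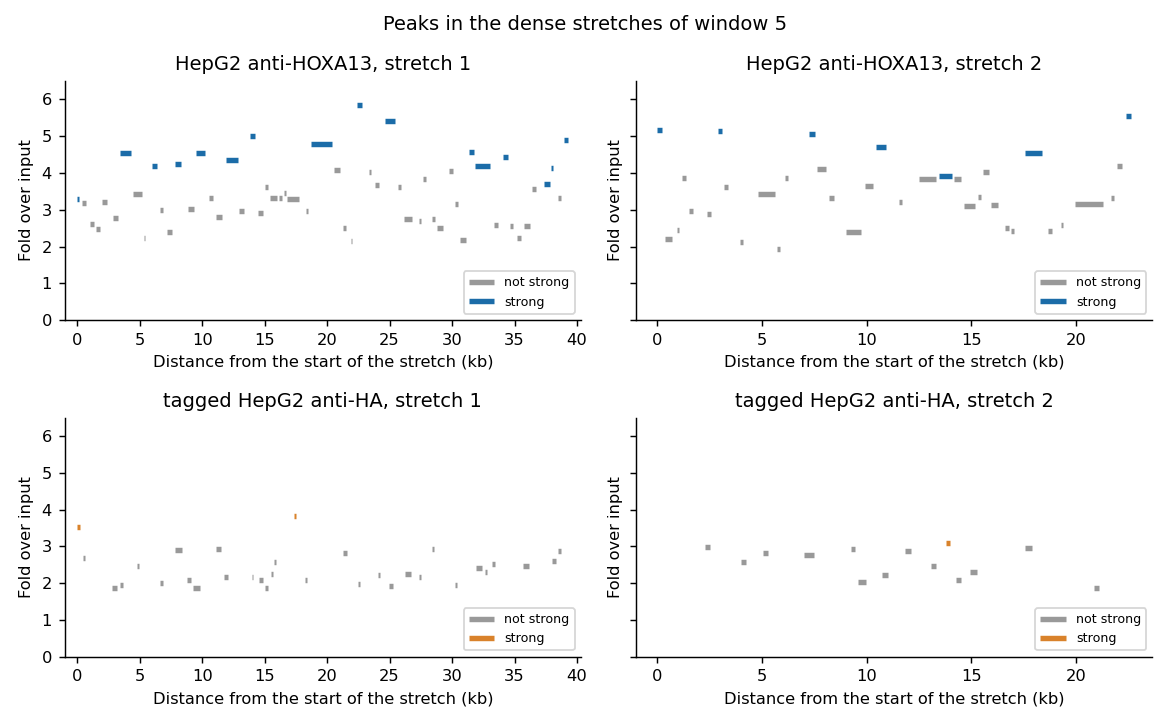
HepG2 peaks in the 2 dense stretches of window 5, drawn as bars from start to end in kb from the start of the stretch, at the height of their fold over input, with strong peaks coloured. HepG2 anti-HOXA13 (top) covers both stretches, with strong peaks up to 5.84-fold, and tagged HepG2 anti-HA (bottom) has fewer and lower peaks.

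The remaining 395 HepG2 anti-HOXA13 members were weak. Over all members the median summit held 7 fragments where 1.73 were expected, and the median fold was 2.93, against 2.65 in the rest. The highest members outside window 5 were 58773719 to 58774025 in window 8 at 4.83-fold (2.78 to 7.88) and 24540796 to 24540931 in window 4 at 4.40-fold (2.38 to 7.59). Their intervals overlap each other and that of the highest peak of stretch 1.

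Tagged HepG2 anti-HA had fewer members, and among them the highest fold of any list in the clusters. The peak at 35372868 to 35373470 in window 5 stood at 19.4-fold (15.4 to 24.0) from 81 fragments. Window 7 followed with 54089442 to 54090010 at 14.3-fold (11.5 to 17.6), window 6 with 44272416 to 44272999 at 11.9-fold (9.14 to 15.1) and window 4 with 21392871 to 21393234 at 10.1-fold (7.44 to 13.3). None of these 4 overlapped a peak of another list. Among the 10 highest strong members 9 were in no other list, and the exception, 12126440 to 12127169 in window 3 at 7.26-fold (5.21 to 9.85), overlapped a Huh7 anti-HOXA13 peak of 2.84-fold. Over the whole list 4.95% of peaks overlapped HepG2 anti-HOXA13, 0.643% Huh7 anti-HOXA13 and 7.05% tagged Huh7 anti-HA. Most peaks of this list were thus in no other list, whatever their height.

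The frequency of high tagged HepG2 anti-HA members depended on the threshold and on input. At 5-fold or more 16 of 188 members stood (8.51%, 4.94 to 13.5%), against 15 of 403 in the rest (3.72%, 2.10 to 6.06%) and 10.9% over the whole list. Raised input lay under 27.7% (21.4 to 34.6%) of members and 53.1% (48.1 to 58.1%) of the rest, against 17.3% over the whole list. The median expected pileup was 5.24 fragments in the clusters and 8.22 in the rest, against 3.77 over the whole list. Without raised input the strong-density ratio was 2.29 (1.31 to 3.99), from 28 members and 29 peaks of the rest, whereas it was 0.976 (0.647 to 1.45) with all peaks. The clusters held 0.545% (0.362 to 0.786%) of the 5141 strong peaks without raised input, close to their 0.573% of the covered length.

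Tagged Huh7 anti-HA members were low throughout. Their highest fold was 3.74 (2.12 to 6.21), at 22934287 to 22934400 in window 4, no member reached a −log10 q of 3, and 5-fold was reached by no member, no peak of the rest and 0.0764% of the whole list. The median fold was 2.56 in the clusters and 2.43 in the rest. A q of 0.05 was reached by 7 members (3.35%) and 68 peaks of the rest (14.3%), against 6.68% over the whole list. Raised input lay under 8.13% (4.81 to 12.7%) of members and 30.0% (25.9 to 34.3%) of the rest, against 8.13% over the whole list.

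Peaks of the HOXA13 antibody in both cell lines overlapped by 1 bp or more within the clusters, and almost never elsewhere on chromosome 19. Of the 382 Huh7 anti-HOXA13 members, 33 overlapped a HepG2 anti-HOXA13 peak (8.64%, 6.02 to 11.9%), against 2 of 236 peaks in the rest (0.847%, 0.103 to 3.03%) and 2.47% over the whole list. Seen from HepG2, 35 of 486 members overlapped (7.20%), against 2 of 766 (0.261%) in the rest and 0.364% over the whole list. Of the strong Huh7 members 11 of 47 overlapped (23.4%, 12.3 to 38.0%). In the rest 1 of 7 strong peaks did (14.3%, 0.361 to 57.9%), an interval that includes 23.4%. Strong Huh7 peaks were wide in both regions, with medians of 575 bp in the clusters and 470 bp in the rest. Both lists are denser in the clusters and their peaks are wider there, with Huh7 medians of 213 bp in the clusters and 159 bp in the rest. The part of density and width in the overlap was not tested. With summits within 100 bp required, the Huh7 share overlapping any other list was 4.71% (2.82 to 7.35%), against 2.54% in the rest. The counts did not rest on the dense stretches, outside which 30 of 379 members overlapped (7.92%, 5.40 to 11.1%), nor on raised input, without which 28 of 343 did (8.16%, 5.49 to 11.6%).

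The positions held by both anti-HOXA13 lists lay mainly in windows 5 and 8. Of the 35 overlapping pairs, 13 lay in window 5, 10 in window 8, 5 in window 4, 2 each in windows 2, 3 and 7 and 1 in window 6. Their summits lay a median of 101 bp apart. The leading position by rank of fold was 37037921 to 37038614 in window 5, with 13 HepG2 fragments at 4.52-fold (2.56 to 7.50) and 35 Huh7 fragments at 7.22-fold (5.10 to 9.95). Further members of window 5 were 37309963 to 37310622, with 3.30-fold (1.63 to 6.15) in HepG2 and 6.37-fold (4.29 to 9.13) in Huh7, and 37618861 to 37619837, with 3.11-fold and 6.54-fold. At 58639281 to 58640196 in window 8 HepG2 had 8 fragments and 3.30-fold (1.63 to 6.15), and Huh7 had 41 fragments and 7.31-fold (5.31 to 9.84). The HepG2 folds rest on few fragments, and only 2 of the 35 HepG2 peaks were strong, both in the dense stretches and with raised input in 1 or both lists.

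The anti-HA lists showed the opposite arrangement. Only 7 of the 209 tagged Huh7 anti-HA members overlapped a tagged HepG2 anti-HA peak (3.35%, 1.36 to 6.78%), against 86 of 477 in the rest (18.0%, 14.7 to 21.8%) and 8.85% over the whole list. From tagged HepG2 anti-HA, 7 of 188 members overlapped (3.72%, 1.51 to 7.52%), against 80 of 403 in the rest (19.9%, 16.1 to 24.1%) and 7.05% over the whole list. Of the 86 overlapping pairs in the rest, 69 had raised input in 1 or both lists. Without raised input 4 of 192 tagged Huh7 members overlapped (2.08%, 0.570 to 5.25%), against 17 of 334 in the rest (5.09%, 2.99 to 8.02%), and these intervals overlap. The clearest shared member was 36266242 to 36266420 in window 5, with 22 fragments in each list, at 3.45-fold (2.22 to 5.15) in tagged Huh7 and 2.75-fold (1.77 to 4.11) in tagged HepG2.

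Within HepG2 the antibodies met in the clusters chiefly in the dense stretches. Of the tagged HepG2 anti-HA members 54 of 188 overlapped HepG2 anti-HOXA13 (28.7%), against 17 of 403 in the rest (4.22%) and 4.95% over the whole list. Of the 57 overlapping pairs 47 lay in the stretches. Raised input in 1 or both lists lay under 32 of the 57, and under 14 of the 17 pairs in the rest. HepG2 anti-HOXA13 peaks covered 61.1% of stretch 1 and 51.5% of stretch 2. The part of that coverage in the overlap was not tested. Outside the stretches 9 of 142 members overlapped (6.34%, 2.94 to 11.7%), an interval that includes the 4.22% of the rest. From HepG2 anti-HOXA13, 53 of 486 members overlapped tagged HepG2 anti-HA (10.9%), against 17 of 766 in the rest (2.22%) and 2.37% over the whole list. Within Huh7, 5 of 382 anti-HOXA13 members overlapped tagged Huh7 anti-HA (1.31%), against 1 of 236 in the rest (0.424%) and 1.77% over the whole list. These are also 5 of the 209 tagged Huh7 anti-HA members (2.39%), against 1 of 477 in the rest (0.210%) and 0.639% over the whole list. One of these, 20727300 to 20728424 in window 4, stood at 6.99-fold with anti-HOXA13 from 59 fragments and at 2.10-fold with anti-HA from 13, and also overlapped a HepG2 anti-HOXA13 peak of 2.93-fold.

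Pairs that differ in both cell line and antibody shared few members, as the Huh7 lists did with 5 of 382 anti-HOXA13 members (1.31%). Huh7 anti-HOXA13 members overlapped tagged HepG2 anti-HA in 6 of 382 cases (1.57%, 0.579 to 3.39%), against 6 of 236 in the rest (2.54%, 0.939 to 5.45%) and 2.16% over the whole list. As a share of tagged HepG2 anti-HA members these were 6 of 188 (3.19%, 1.18 to 6.82%), against 6 of 403 in the rest (1.49%, 0.548 to 3.21%). Both shares compare with 0.643% over the whole list, and the interval of the members lies above it. Tagged Huh7 anti-HA members overlapped HepG2 anti-HOXA13 in 2 of 209 cases (0.957%), against 1 of 477 in the rest (0.210%) and 1.53% over the whole list. As a share of HepG2 anti-HOXA13 members these were 2 of 486 (0.412%), against 1 of 766 in the rest (0.131%) and 0.567% over the whole list.

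**Figure D5:**
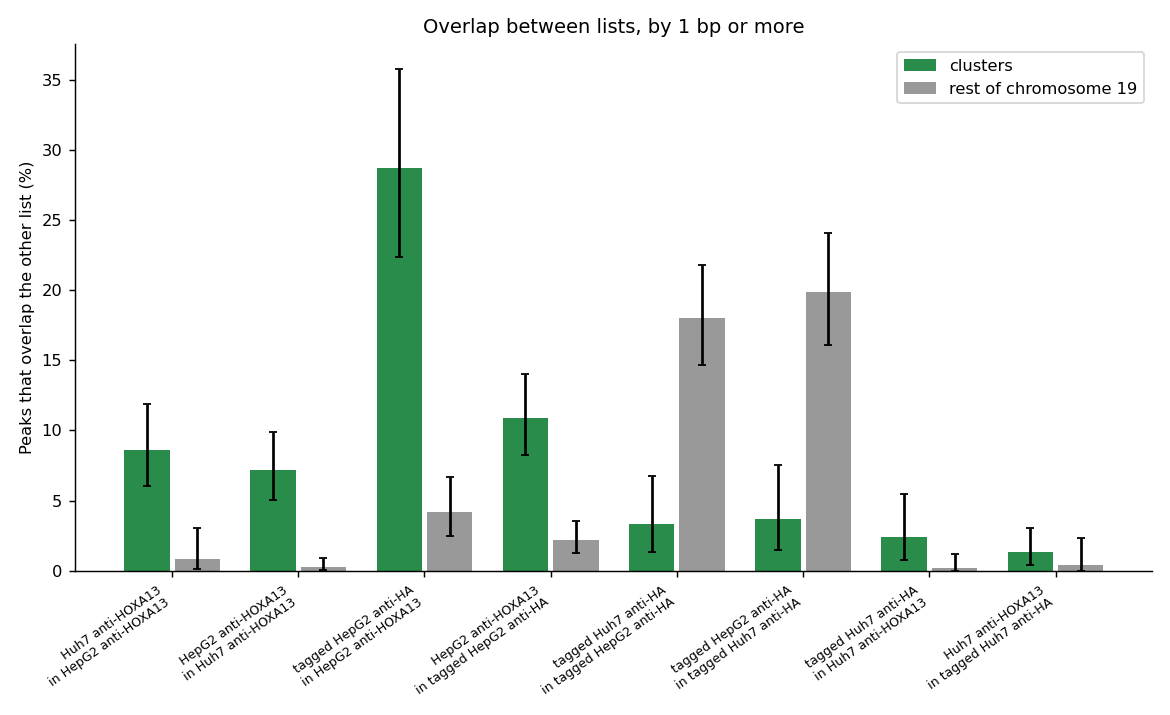
Percentage of the peaks of the list named first that overlap the list named second by 1 bp or more, in the clusters (green) and the rest of chromosome 19 (grey), with exact 95% binomial intervals. Huh7 anti-HOXA13 overlaps HepG2 anti-HOXA13 in 8.64% of members and 0.847% of the rest, whereas the anti-HA lists overlap each other more in the rest.

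When overlapping members of all lists were joined, the clusters held 1157 separate positions. Of these, 1065 were in 1 list, 92 in 2 or more and 7 in 3, and none was in all 4 lists. The commonest combinations were both HepG2 lists at 46 positions and both anti-HOXA13 lists at 28. At the window edges, the 100 kb just inside held 15 Huh7 anti-HOXA13 peaks with a median of 2.93-fold and the 100 kb just outside held 9 with a median of 2.53-fold. In HepG2 anti-HOXA13 these counts were 66 and 35, in tagged HepG2 anti-HA 17 and 24, and in tagged Huh7 anti-HA 24 and 19, inside and outside. The medians of these lists went the other way, lower inside than outside. They were 2.83- and 3.25-fold in HepG2 anti-HOXA13, 2.76- and 2.79-fold in tagged HepG2 anti-HA and 2.42- and 2.49-fold in tagged Huh7 anti-HA.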

How the data were processed

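Members and lists were chosen with earlier results of these data known. Per the submitters' processing notes, BWA aligned the reads and MACS2 called the peaks, with versions and settings not stated there. The notes name GRCh38, but the lists hold the decoy of the GRCh37 reference and peaks past the end of GRCh38 chromosome 19, so coordinates are GRCh37, 1-based. The 4 IgG libraries were not analysed here.

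In each deposited list, the fold (a ratio over input), the −log10 p and −log10 q and the score (10 times −log10 p) are the authors' values at the summit, and another column gives how far the summit lies from the start of its peak. The deposited p reached down to a −log10 of 2.00. Total depth is not in the files, and the labels state 50 M reads per sample. Fragments and expected pileup were solved from fold and p with MACS2's published formulas, for 99.99% or more of peaks, with the Huh7 anti-HOXA13 ChIP scaled by 0.812. The background of the expected pileup was 1.73 and 2.60 in the HepG2 and Huh7 anti-HOXA13 lists, and 2.62 and 2.61 in the tagged HepG2 and tagged Huh7 anti-HA lists.

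Lengths leave out any span of at least 1 Mb that holds no peak. Overlap needed 1 bp. Intervals are 95% (Poisson for densities and folds, exact Clopper-Pearson for shares, exact conditional for ratios), and a count of 0 allows up to 3. The regions named are the 10 highest strong members without raised input per list, the 10 shared positions with the best mean rank and the highest member of each window; other named positions were chosen after their values were seen. Dense stretches are runs of 5 or more strong HepG2 anti-HOXA13 members within 10 kb, defined after the data were seen. The tools were matplotlib 3.10.9, scipy 1.17.1, pandas 2.3.3, numpy 2.4.6 and Python 3.11.15, and the solver was tested on simulated data.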

Additional observations from a re-analysis of the deposited data

Results flagged for a closer look

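The share of members that overlapped any of the other lists went one way in 3 lists and the other way in 1, a difference between groups that was not tested. In tagged Huh7 anti-HA 5.74% of members overlapped another list (3.00 to 9.81%), against 18.2% (14.9 to 22%) in the rest of chromosome 19. The share was 17.7% in the clusters and 2.48% in the rest for HepG2 anti-HOXA13, and 10.2% and 3.81% for Huh7 anti-HOXA13. For tagged HepG2 anti-HA it was 33.5% (26.8 to 40.7%) and 25.1% (20.9 to 29.6%), and these intervals overlap. Its share in the clusters fell below the 25.1% of the rest without window 5 (9.32%) and without the dense stretches (12.7%).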

How the results depend on the processing

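Of 266 alternative values, 218 stayed within the interval of the main value, 40 left it and 8 reversed a difference that lay beyond its interval. Where the main interval included no difference, 19 alternatives lay on the other side of it, 12 of them within that interval, all in the anti-HA lists. The causes were not tested beyond the changed setting itself. Huh7 anti-HOXA13 kept its direction in all alternatives run. Leaving out each window in turn, the density ratio of all peaks ran between 1.14 and 1.59 in HepG2 anti-HOXA13, 0.888 and 1.24 in tagged HepG2 anti-HA and 0.777 and 1.18 in tagged Huh7 anti-HA, where the lowest was without window 4. In HepG2 anti-HOXA13 the strong-density ratio ran between 0 and 19.2 and the strong share between 0 and 6.41%, both at 0 without window 5. Shares overlapping another list ran between 9.0 and 21.4% in HepG2 anti-HOXA13 and 9.32 and 39.6% in tagged HepG2 anti-HA, both lowest without window 5, and the median fold of tagged HepG2 anti-HA between 2.68 and 2.99.

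Without the dense stretches, whose definition rests on strong HepG2 anti-HOXA13 peaks, HepG2 anti-HOXA13 had a density ratio of 1.23, a strong ratio of 0, a strong share of 0% and an overlapping share of 10.6%. Tagged HepG2 anti-HA then had a ratio of 0.840, a median fold of 2.91 and an overlapping share of 12.7%, below the 25.1% of the rest. Without raised input, the ratio for all peaks was 1.71 (1.36 to 2.14) and for strong peaks 2.29 (1.31 to 3.99) in tagged HepG2 anti-HA, with a median fold of 2.92, and 1.37 (1.14 to 1.64) for all peaks in tagged Huh7 anti-HA. The overlapping share was then 11.6% in HepG2 anti-HOXA13 and 21.3% in tagged HepG2 anti-HA. With summits within 100 bp it was 10.3%, 20.7% and, in Huh7 anti-HOXA13, 4.71%, against 1.83%, 15.6% and 2.54% in the rest, in the same order. Against flanks of 1 Mb the HepG2 anti-HOXA13 ratios were 1.26 for all and 4.66 for strong peaks.

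On the short arm the ratio for all peaks was 1.23 in HepG2 anti-HOXA13, with a strong ratio of 0, 0.769 in tagged HepG2 anti-HA and 1.27 in tagged Huh7 anti-HA, and on the long arm 1.42 and 0.803 in the anti-HA lists. At q of 0.05 or less the ratio rose to 10.2 in Huh7 anti-HOXA13, was 3.75 in HepG2 anti-HOXA13 and fell to 0.244 (0.0947 to 0.531) in tagged Huh7 anti-HA. Median folds were then 4.34 and 3.67 for anti-HOXA13 in Huh7 and HepG2 cells, 3.32 in tagged HepG2 anti-HA and 3.10 in tagged Huh7 anti-HA, below the 3.22 of its rest. At a −log10 q of 3 or more the strong share was 18.6% and 9.88% for anti-HOXA13 in Huh7 and HepG2 cells and 31.9% in tagged HepG2 anti-HA. At 10 or more it was 4.71%, 0.206% and 7.98%, in the same order, and the HepG2 anti-HOXA13 strong ratio was 2.37 (0.0303 to 186). With peaks within 10 kb counted as 1 group it was 2.37 (0.172 to 32.8). No paired analysis was possible because each condition had 1 library. HepG2 anti-HOXA13 summits held a median of 7 fragments, which limits the precision of its folds.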

Other observations

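Outside the clusters, the highest Huh7 anti-HOXA13 peaks of chromosome 19 without raised input lay at 7083031 to 7083813, with 9.18-fold (6.74 to 12.2), and at 14829230 to 14829917, with 8.88-fold (6.56 to 11.8). The first overlapped a HepG2 anti-HOXA13 peak of 3.30-fold. In tagged HepG2 anti-HA the highest such peak lay at 42993028 to 42993864, with 14.0-fold (11.2 to 17.2).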
